A study of Triticum aestivum with 4 samples.

Results

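The alpha subunit of the plastid-type RNA polymerase and the chloroplast ribosomal protein L28 were each followed through every probe set of their cluster on the wheat array. A probe set is a group of short probes designed against 1 transcript sequence, and probe sets that share a cluster number were designed against related sequences. The alpha subunit cluster holds 9 probe sets and the L28 cluster holds 1, which gives 10 of the 61115 probe sets on the array after the controls were left out. Of these, TaAffx.129824.10.S1_at is described in the study through a rice match to the alpha subunit of DNA-directed RNA polymerase, with an Arabidopsis RNA polymerase alpha subunit as the second match. The L28 probe set is described there through rice and Arabidopsis matches. The other 8 probe sets of the alpha subunit cluster share the first number of that name only, and the platform annotation names a gene for 0 of the 10. Whether the alpha subunit probe sets read a chloroplast or a nuclear copy is therefore not known. The clusters were chosen by their lower signal in this same comparison, and 5 probe sets had been singled out as those past the threshold. The differences between the lines are therefore a description, and no test of them is given.

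Chloroplasts keep a genome of their own and read it largely with a polymerase of bacterial type, which is built from plastid-encoded core subunits and nuclear-encoded sigma factors. The alpha subunit is the scaffold on which the core assembles, and the enzyme transcribes many photosynthesis genes. Chloroplast messages are translated on bacterial-type ribosomes inside the organelle. L28 is a protein of the large subunit of that ribosome, is encoded in the nucleus in Arabidopsis, and is imported into the chloroplast.

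Transcripts were measured in flag leaves at anthesis from 2 lines, with 2 arrays per line. WT was the spring wheat genotype CB037. UD-2 was a T2 line of CB037 from the transformation event pPTN1034-NN569-3-5-1, which carries a synthetic maize ZmDof1, a Dof zinc finger transcription factor, behind the constitutive sugarcane UBI4 promoter, together with an nptII selection cassette. Each array held RNA pooled from 3 plants, all plants were grown side by side in a greenhouse with a 10/14 h photoperiod at 29/24°C, and UD-2 stands for a single insertion event, so that the transgene and its insertion site cannot be told apart. ZmDof1 transcript was not analysed here.

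The values are log2 signals from robust multiarray average, and 1 unit is a 2-fold change. The array medians were 4.60 and 4.58 in WT and 4.54 and 4.53 in UD-2. A background level was set on each array at the 95th percentile of the Bacillus control probe sets, which gave 4.17 and 4.15 in WT and 3.93 and 3.99 in UD-2. The leaf label was borne out by the highest probe set for the Rubisco large subunit (log2 mean of 14.56 over the 4 arrays) and by PsbO of photosystem II (13.35 in WT). Of 17 grain storage protein probe sets, 13 were below background on all 4 arrays and limma called 0, although the brightest had a mean of 10.52. Over the whole array limma called 172 probe sets lower in UD-2 (0.281%) and 263 higher (0.430%) with a Storey-Tibshirani adjusted p under 0.05. The study reported fewer in each direction from these arrays with the same named methods, and the reason for the gap was not tested. The share of calls that were lower was 39.5%, and 28.6% when each array was centred on its median. The p-values measure the spread between pools, and in bulk leaf RNA fewer cells of a type and less RNA per cell cannot be told apart.

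L28 signal was near the floor of the array in UD-2. The L28 probe set had log2 signals of 8.98 and 9.09 in WT and of 2.26 and 2.41 in UD-2. Both WT pools were far above the background level, and both UD-2 pools were below it. The means were 9.04 ± 0.08 in WT and 2.33 ± 0.10 in UD-2 (SD, n = 2 each). The difference of means was −6.70 with a standard error of 0.12 from limma, and the 4 differences between a UD-2 and a WT pool ran from −6.83 to −6.58. Because the UD-2 values lie below background, the fold is given only as a bound, set against the background level, and L28 signal was at least 33.7-fold lower in UD-2. The bound was 42.4-fold with the 90th percentile of the Bacillus controls as background and 23.3-fold with their maximum. These values rest on 1 probe set with no gene in the annotation. Whether it reads every copy of the L28 gene in wheat is not known, so that they do not describe L28 transcript as a whole.

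A pattern above background in both WT pools and below it in both UD-2 pools was found on 109 probe sets (0.178%), with L28 among them. The opposite pattern was found on 806 probe sets (1.32%), with a median UD-2 signal of 4.17. The background level was lower in UD-2 (3.93 and 3.99) than in WT (4.17 and 4.15). A probe set with equal signals between these levels therefore counts among the 806, so that the 2 counts do not compare gains with losses. Such counts take in probe sets that lie close to the background level, and the median WT signal of the 109 was 4.42. L28 crossed the level from a signal more than 4 units above, and by WT signal it ranked 2 among the 109. It was not alone in this: Ta.611.1.A1_at had 10.03 and 10.71 in WT, and TaAffx.58902.1.S1_x_at had 8.66 and 8.62.

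The probe sets of the alpha subunit cluster had lower means in UD-2 throughout, by much less than L28. All 9 means lay below WT, against 54.0% of all probe sets, and the median difference was −1.03, against −0.02 over the array. In 8 of the 9, both UD-2 pools lay below both WT pools, a separation found for 25.9% of all probe sets. The 9 probe sets share a sequence cluster, and several can read the same RNA, so that they are not independent measurements. The cluster was chosen for its lower signal in this same comparison, and 4 of the 9 were among the probe sets singled out. These counts are therefore a description, and they take in TaAffx.129824.8.S1_at, which was below background on all 4 arrays.

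**Figure D1:**
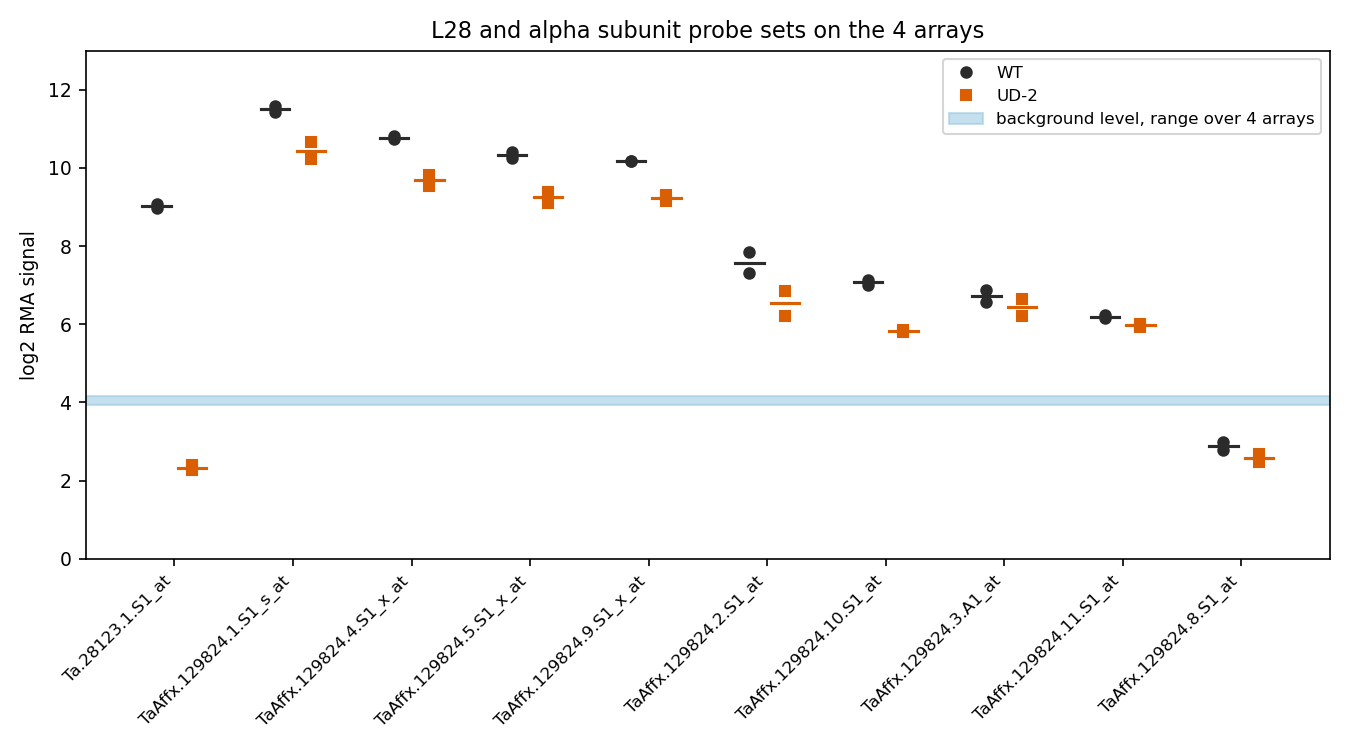
Log2 signal (vertical axis) of the L28 probe set and of the 9 alpha subunit probe sets (horizontal axis, alpha subunit ordered by WT mean) on the 2 WT arrays (circles) and the 2 UD-2 arrays (squares), with the mean of each line as a short bar and the background level of the 4 arrays, 3.93 to 4.17, as a band. L28 falls from 9.04 to 2.33, across the band, while the alpha subunit probe sets stay on the same side of it in both lines and TaAffx.129824.8.S1_at is below it on all 4 arrays.

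The differences formed a larger and a smaller class. In 6 probe sets the difference ran from −1.25 to −0.95, with a median of −1.07, and in the other 3 it ran from −0.31 to −0.22. Differences of −1 or lower were found on 0.668% of all probe sets. The limit between the classes was placed after the values were seen.

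TaAffx.129824.10.S1_at, the probe set with the alpha subunit match, had the largest difference of the cluster. Its log2 signals were 7.14 and 7.00 in WT and 5.79 and 5.85 in UD-2. The means were 7.07 ± 0.10 and 5.82 ± 0.04 (SD, n = 2 each), which is 2.38-fold lower in UD-2, with a difference of −1.25 and a standard error of 0.12. The pools of a line differed by at most 0.15, far less than the lines did.

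A group of 4 bright probe sets, 3 with names ending in x_at and 1 in s_at, gave nearly the same difference. These endings mark probe sets with probes that can also bind other transcripts, or that are shared by several transcripts, so that related transcripts cannot be told apart. TaAffx.129824.4.S1_x_at had signals of 10.81 and 10.75 in WT and 9.55 and 9.83 in UD-2, a difference of −1.09 (2.13-fold lower, standard error 0.14). TaAffx.129824.5.S1_x_at had 10.25 and 10.40 in WT and 9.11 and 9.39 in UD-2, a difference of −1.08 (2.11-fold lower, standard error 0.14). On both probe sets the distance between the lines was larger than that between the pools of either line.

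TaAffx.129824.9.S1_x_at had signals of 10.18 and 10.18 in WT and 9.15 and 9.31 in UD-2, a difference of −0.95 (1.94-fold lower, standard error 0.12). TaAffx.129824.1.S1_s_at had 11.42 and 11.59 in WT and 10.22 and 10.66 in UD-2, a difference of −1.06 (2.09-fold lower, standard error 0.18). TaAffx.129824.5.S1_x_at and TaAffx.129824.1.S1_s_at lay just inside and just outside the threshold that had singled out the 5. Their differences were close, and their UD-2 pools lay 0.27 and 0.44 apart.

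The 5 probe sets with no such ending differed among themselves more than the 4 did. Their differences ran from −1.25 to −0.22, against −1.09 to −0.95 for the probe sets ending in x_at or s_at. TaAffx.129824.2.S1_at had signals of 7.84 and 7.30 in WT and 6.22 and 6.86 in UD-2, a difference of −1.03 (2.04-fold lower, standard error 0.27). Its lines did not overlap, but the gap of 0.44 between the nearest pools was smaller than the distance within either line (0.54 in WT and 0.64 in UD-2).

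TaAffx.129824.3.A1_at was the only probe set of the cluster whose lines overlapped. It had 6.58 and 6.89 in WT and 6.21 and 6.65 in UD-2, a difference of −0.31 with a standard error of 0.19. TaAffx.129824.11.S1_at had 6.23 and 6.16 in WT and 6.02 and 5.93 in UD-2, a difference of −0.22 with a standard error of 0.11. The difference between the lines was small on both of these above-background probe sets, and by size the decrease of TaAffx.129824.11.S1_at held place 11299 on the array.

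TaAffx.129824.8.S1_at had 2.99 and 2.78 in WT and 2.68 and 2.47 in UD-2. It was below the background level on all 4 arrays, so that no fold is given. It counts among the 9 with a lower mean, and its signal carries no measured level of a transcript in either line.

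The pools of UD-2 differed from each other in 1 direction on most of the cluster. UD-2 replicate 2 was above UD-2 replicate 1 on 7 of the 9 probe sets, with a median of 0.27, and on all 6 of the larger class. Over the array this held for 30532 of the 61115 probe sets. WT replicate 2 was above WT replicate 1 on 4 of the 9. Because of this gap the cluster's differences were larger without UD-2 replicate 2 than without UD-2 replicate 1 on 7 of the 9. For TaAffx.129824.1.S1_s_at they were −1.28 and −0.84, and for TaAffx.129824.10.S1_at −1.28 and −1.22. L28 had the same order of its UD-2 pools at a far lower signal, below background in both, and its difference was −6.77 and −6.63.

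Other clusters with many probe sets gave a setting for the 9 of the alpha subunit. The array holds 22 clusters with at least 9 probe sets, and the largest has 113, and the alpha subunit cluster had the lowest median of these and was the only 1 with every mean below WT. The next lowest median was −0.25, in cluster Ta.27751, where 6 of 9 means were below WT. The median of the 22 cluster medians was −0.07. Among all 8842 clusters with at least 2 probe sets, 2695 (30.5%) had every mean below WT, and the median of the alpha subunit cluster was in place 39 from the lowest. A cluster with more probe sets meets that condition less easily, and in the other 4 clusters of exactly 9, the means below WT numbered 6, 6, 3 and 3. The alpha subunit cluster was chosen by this comparison, so that its place is a description.

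**Figure D2:**
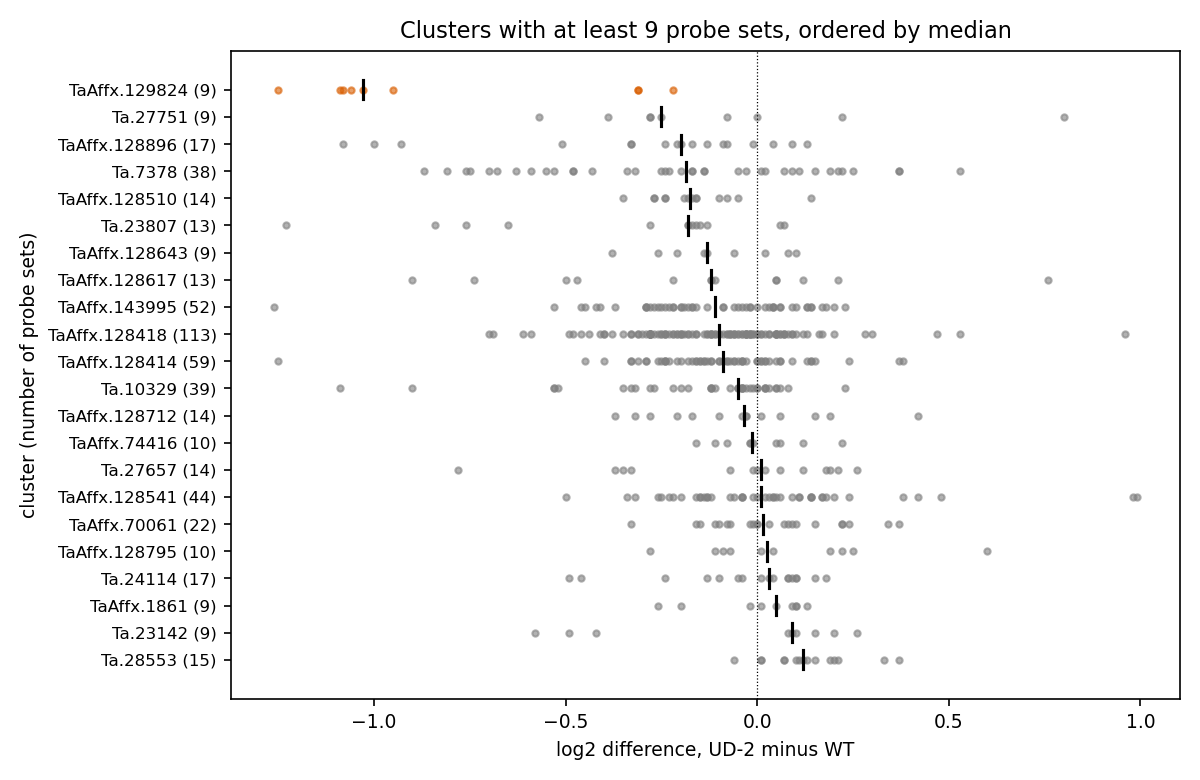
Log2 difference of means, UD-2 minus WT (horizontal axis), of every probe set (points) in the 22 clusters with at least 9 probe sets (vertical axis, number of probe sets in brackets), with cluster medians as black bars. The alpha subunit cluster, coloured and at the top, has 9 of 9 points left of 0 and a median of −1.03, while the other medians lie between −0.25 and 0.12.

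Similarity over the 4 arrays was measured as the root mean square difference of log2 signals after the mean of each probe set was subtracted. For TaAffx.129824.1.S1_s_at, TaAffx.129824.5.S1_x_at was in place 4 of 61114 probe sets by nearness, at 0.059, and in the other direction the s_at probe set was in place 6. For TaAffx.129824.4.S1_x_at the nearest of the cluster was TaAffx.129824.5.S1_x_at, in place 20 at 0.072. For TaAffx.129824.10.S1_at and TaAffx.129824.9.S1_x_at it was TaAffx.129824.4.S1_x_at, in places 41 and 54. These lay at distances of 0.12 and 0.083, and for TaAffx.129824.2.S1_at of the larger class the nearest of the cluster was further away, in place 339 at 0.22. In the smaller class, TaAffx.129824.8.S1_at and TaAffx.129824.11.S1_at were nearest to each other, at 0.083, and TaAffx.129824.3.A1_at was 0.23 from its nearest. Their places, 1660, 6387 and 20956, were far back at distances like those of the larger class, so that place and distance do not rank the probe sets alike.

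The 5 probe sets with a pattern most like TaAffx.129824.10.S1_at were TaAffx.107708.1.S1_at (0.036), TaAffx.59613.1.S1_at (0.041), Ta.23366.2.S1_at (0.049), Ta.14764.1.S1_at (0.053) and Ta.12472.1.S1_x_at (0.063). TaAffx.107708.1.S1_at was below background on all 4 arrays. Ta.23366.2.S1_at is described in the study through a match to the peroxidase PER12, and its signals were 11.55 and 11.46 in WT and 10.13 and 10.30 in UD-2. With 4 arrays in 2 lines, likeness of this kind says mainly that the difference between the lines had the same size.

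For L28 the nearest patterns were further away. Ta.7158.1.S1_at, with a match to the TCP family of transcription factors, came first at 0.43, with 9.64 and 10.49 in WT and 3.94 and 4.16 in UD-2. Ta.611.1.A1_at, with a match to ULP1B, a ubiquitin-like protease of Arabidopsis, followed at 0.63, and Ta.611.2.S1_at of the same cluster was at 0.82. TaAffx.58902.1.S1_x_at, described as a putative NADH-ubiquinone oxidoreductase, was at 0.84, and TaAffx.120564.1.A1_at at 1.14. Ta.7158.1.S1_at was barely above the background level in UD-2 (3.94 and 4.16, against 3.93 and 3.99). The other 4 were below it in both UD-2 pools, as L28 was, so that their distances rest in part on signals with no measured level. None of these 5 is described in the study as a ribosomal protein.

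The annotation names 2 other ribosomal proteins that were compared with L28, and both had far smaller differences. Ta.14183.1.S1_at, annotated as CL9 for the chloroplast ribosomal protein L9, had 9.51 and 9.56 in WT and 8.77 and 9.19 in UD-2. Its difference was −0.55 with a standard error of 0.17, and it did not pass the threshold (adjusted p = 0.147 from limma). Like L28 it is a protein of the large subunit, and its UD-2 pools lay below its WT pools but well above background. The cytosolic ribosomal protein RPS29 has 2 probe sets, of which 0 were called. At the shares called over the array, 0.281% lower and 0.430% higher, that is no result about them. Ta.24254.3.S1_x_at differed by 0.28 (adjusted p = 0.202 from limma), and Ta.30687.2.S1_x_at was below background on all 4 arrays. The median of the 2 was 0.10, which takes in this below-background probe set.

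Subunits of the nuclear RNA polymerases were measured by clusters that the study had picked on the same arrays, so that their values too are a description. Both probe sets of the cluster with a match to RPC8 of RNA polymerase III were higher in UD-2. TaAffx.7104.1.S1_at had 5.70 and 5.90 in WT and 9.05 and 8.32 in UD-2 (7.39-fold higher), and TaAffx.7104.1.S1_x_at 6.06 and 6.31 against 8.89 and 8.32 (5.37-fold higher). The direction was thus opposite to that of the alpha subunit.

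The cluster with a match to RPB4 of RNA polymerase II has 6 probe sets, with differences in both directions. Ta.608.3.S1_at had 9.34 and 9.25 in WT and 6.89 and 7.42 in UD-2, a difference of −2.14. Ta.608.2.S1_at had 5.93 and 5.99 in WT and 7.53 and 7.09 in UD-2, a difference of 1.35. The other 4 were −2.44 on Ta.608.2.S1_a_at, with 1 of its 2 UD-2 pools below background, 1.15 on Ta.608.2.S1_x_at, 0.37 on Ta.608.1.S1_at and 0.24 on Ta.608.1.S1_x_at. In this cluster the probe sets split by direction, whereas the 9 of the alpha subunit differed only in size.

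**Figure D3:**
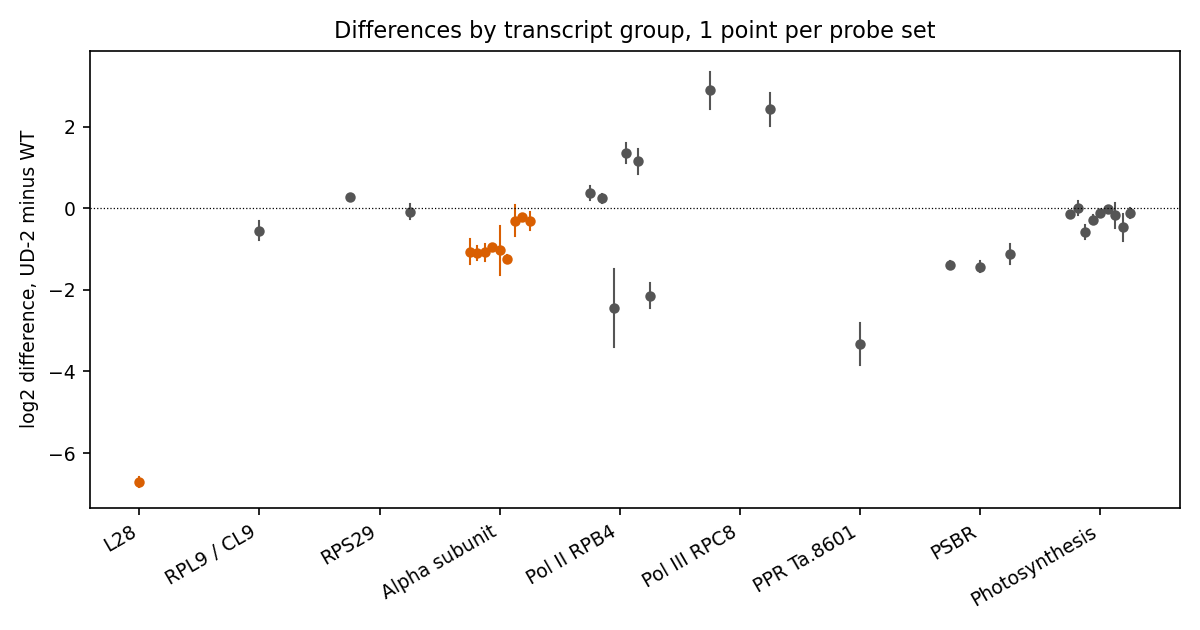
Log2 difference of means, UD-2 minus WT (vertical axis), with 1 point per probe set and a line from the lowest to the highest of the 4 differences between a UD-2 and a WT pool, for L28, the alpha subunit and the comparison groups (horizontal axis). L28, with UD-2 signals below background, is at −6.70, far below CL9 at −0.55, and the alpha subunit probe sets lie between −1.25 and −0.22 while RPC8 is at 2.42 and 2.89.

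Chloroplast transcripts and chloroplast-targeted proteins were taken as a further comparison. The plastid-type polymerase transcribes the gene for the Rubisco large subunit, the enzyme of carbon fixation. Of 28 probe sets annotated as rbcl, 0 were called, which at the shares called over the array, 0.281% lower and 0.430% higher, is no result about them. Their median difference was −0.09, 21 of the 28 means were below WT (54.0% over the array), 5 were separated lower (25.9%), and 14 were below background on all 4 arrays. The brightest were TaAffx.128414.1.A1_x_at, with a difference of 0.01 (adjusted p = 0.698), and Ta.24976.1.S1_x_at, with −0.01 (adjusted p = 0.688, both from limma). The mean of the first, 14.56, was the highest on the array. Saturation of such probes was not tested, so that these values do not show an unchanged level of RNA. The study names a cDNA synthesis kit but not how the cDNA was primed. How fully chloroplast RNA entered the labelled sample was not tested, so that these signals are no measure of the polymerase's output. The same limit holds for any chloroplast copy of the alpha subunit. The gene table used here places rbcl on wheat chromosome 2D, so that copies in the nucleus and in the chloroplast cannot be told apart.

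Nuclear genes for photosynthesis proteins gave 9 probe sets for PsbO, PsbP, petC, PRK, pre-FBPase and Trx-M, of which 0 were called, again no result at the array's shares. Of the 9 means, 8 were below WT (54.0% over the array), and in 5 both UD-2 pools lay below both WT pools (25.9%). Among the 8 were 2 probe sets below background on all 4 arrays, 1 for pre-FBPase and 1 for petC, with no measured level. Their median difference was −0.13, and the differences ran from −0.58 for Ta.439.1.S1_at of pre-FBPase to 0.00 for Ta.136.1.S1_at of Trx-M. The brightest were Ta.861.1.S1_at of petC, the Rieske protein of the cytochrome b6f complex, at −0.12, and Ta.23158.1.S1_at of PRK, phosphoribulokinase of the Calvin cycle, at −0.03.

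The study's own list held further chloroplast or organelle transcripts with larger decreases. PSBR of photosystem II has a cluster of 3 probe sets, with differences of −1.39, −1.43 and −1.12, close to the larger class of the alpha subunit. Ta.8601.1.S1_at, matched to a pentatricopeptide protein, had 6.97 and 7.61 in WT and 3.77 and 4.16 in UD-2, a difference of −3.33. With UD-2 replicate 1 below background, only 1 of the 2 UD-2 pools gave a measured level. Pentatricopeptide proteins bind organelle RNA and take part in its processing and editing. These decreases were picked on the same arrays for being lower, as the alpha subunit and L28 were.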

How the data were processed

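Biotin-labelled cRNA from total RNA was hybridized to 4 GeneChip Wheat Genome Arrays, 2 WT and 2 UD-2. RMA background correction, normalization and probe summary were run by the authors, who deposited 1 log2 value per probe set and array (R 3.1.1, RMA and limma are in the submitters' processing notes). Probe-level intensities were not analysed here. Of 61290 probe sets, 175 controls were left out.

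The log2 values were fitted with lmFit and eBayes of limma 3.58.1 (R 4.3.3), without covariates, on all probe sets. Storey-Tibshirani adjusted p-values (estimated share unchanged 0.708) were read at a threshold of 0.05. The script was tested on simulated data. Python 3.11.15 with pandas 2.3.3 and matplotlib 3.10.9 served for tables and figures. Precision is limited by 2 arrays per line.

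The members and the lists were chosen with earlier results of these data known. The probe sets named were all members, 4 clusters from the study's lists, up to 4 called or else the 2 brightest of each list, and the 5 nearest patterns, given for TaAffx.129824.10.S1_at and L28. Lists were matched by gene symbol: the platform annotation gives 1 gene for 1273 probe sets, and 1272 of their gene IDs are in the RefSeq table of wheat. Lists for mitochondrial ribosomal proteins, sigma factors and other polymerase partners matched 0 probe sets. Alternatives were other adjustments, eBayes settings, filters, normalizations, background levels, a block for the replicate number, and fits without each array.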

Additional observations from a re-analysis of the deposited data

How the results depend on the processing

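All 10 members stayed below WT under each alternative in which they were measured. Under other normalizations the differences of L28 ran from −6.73 to −6.65 and those of TaAffx.129824.10.S1_at from −1.27 to −1.20. The UD-2 signals of L28 lay below background, so that its narrow range does not fix the size of the decrease. Over the array, limma called 142 probe sets higher and 98 lower with Benjamini-Hochberg adjustment, 512 and 325 with robust eBayes, 779 and 491 without dim probe sets, 400 and 285 with quantile normalization, and 797 and 319 with median centring. With cyclic loess, 375 were higher and 277 lower. Median centring also moved TaAffx.129824.11.S1_at to −0.17 and the RPS29 median to 0.15. The bound on L28 was 42.4-fold or 23.3-fold with a lower or higher background level. The causes of these changes were not tested, except that the bounds follow from the level itself.

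The lines share replicate numbers that no label ties to a common batch, and the deviations of same-numbered arrays correlated at −0.091. With the replicate block, 16 probe sets were higher and 11 lower by limma, with 1 residual degree of freedom. When an array is left out, the remaining array of that line is assumed to vary like the other line. Limma then called 0 probe sets higher and 0 lower by adjusted p, with 2512 to 4597 higher and 2602 to 4182 lower at an unadjusted p under 0.05. The difference of L28, whose UD-2 signals lay below background, then ran from −6.77 to −6.63. The difference of TaAffx.129824.2.S1_at, the widest of the cluster, ran from −1.35 to −0.71.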
